A study of Homo sapiens with 6 samples.

Results

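The 10 genes described here encode the FOS proteins (FOS, FOSB, FOSL1 and FOSL2), the JUN proteins (JUN, JUNB and JUND) and 3 of the early growth response proteins (EGR1, EGR2 and EGR3). They were taken as a fixed list of symbols, and all 10 were among the 16670 genes listed in the table. The cells were A549, a long-established human line of non-small cell lung cancer origin, and their RNA was sequenced in bulk. Every culture had first received alisertib, which inhibits the Aurora A kinase of mitosis, for 1 week with the drug renewed in between, so that the cells became senescent. The untreated group (3 libraries) was given nothing more, whereas the salinomycin group (3 libraries) was given 2.5 µM salinomycin, an ionophore that carries alkali metal ions across membranes, for 48 h before harvest. The labels call the libraries biological replicates of each group and name no batch, all come from 1 cell line, and no cells without alisertib were analysed here.

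FOS and JUN proteins form the dimeric transcription factor AP-1: they pair through leucine zippers, JUN proteins with themselves or with a FOS protein, FOS proteins only with a partner such as JUN. EGR proteins are zinc finger factors that bind GC-rich elements on their own. Many of these genes are immediate-early genes, which are transcribed within minutes of a growth factor, stress or calcium signal through serum response and cyclic AMP response elements, without the need for new protein, and whose transcripts are short-lived. In lung cancer cells AP-1 is known for its part in proliferation, invasion and stress responses, and in senescent cells for its part in opening enhancers.

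The sequence before the transcript start was read from RefSeq (GRCh38.p14) for 8 of the 10 genes, and FOSL1 and EGR3 had no entry. Windows are shown for FOSB (widest change of the FOS family), FOS and FOSL2, and for JUND and EGR1 from the other families. They were chosen because they hold the same short motif beside different values. Each runs 5′ to 3′ on the strand of the gene. Only the longest stretch that no GENCODE 29 exon covers is printed, so those of FOSB, FOS and FOSL2 stop 2, 55 and 57 bases before the RefSeq start. The stretch of FOSL2 lies within the span that GENCODE 29 gives this gene (28392448 to 28417312). Capitals mark the motifs found, on either strand.
FOSB (chr19:45467746-45467994, plus strand): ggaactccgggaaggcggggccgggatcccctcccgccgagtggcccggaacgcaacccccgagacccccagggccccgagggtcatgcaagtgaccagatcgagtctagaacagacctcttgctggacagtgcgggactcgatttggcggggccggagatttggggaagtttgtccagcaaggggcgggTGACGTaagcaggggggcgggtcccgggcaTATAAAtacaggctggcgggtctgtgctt
FOS (chr14:75278578-75278773, plus strand): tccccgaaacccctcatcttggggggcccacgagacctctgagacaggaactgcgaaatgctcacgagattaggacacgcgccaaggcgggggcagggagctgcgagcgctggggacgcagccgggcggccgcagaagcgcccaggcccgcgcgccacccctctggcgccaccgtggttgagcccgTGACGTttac
FOSL2 (chr2:28392608-28392801, plus strand): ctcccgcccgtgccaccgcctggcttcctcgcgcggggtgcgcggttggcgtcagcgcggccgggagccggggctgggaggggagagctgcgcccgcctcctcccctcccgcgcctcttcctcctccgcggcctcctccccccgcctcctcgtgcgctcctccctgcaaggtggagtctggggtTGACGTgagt
JUND (chr19:18281623-18281872, minus strand): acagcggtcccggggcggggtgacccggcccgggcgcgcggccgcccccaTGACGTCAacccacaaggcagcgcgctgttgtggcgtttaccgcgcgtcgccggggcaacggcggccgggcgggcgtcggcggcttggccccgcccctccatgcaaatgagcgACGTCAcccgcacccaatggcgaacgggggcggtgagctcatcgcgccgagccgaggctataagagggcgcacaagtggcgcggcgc
EGR1 (chr5:138465229-138465478, plus strand): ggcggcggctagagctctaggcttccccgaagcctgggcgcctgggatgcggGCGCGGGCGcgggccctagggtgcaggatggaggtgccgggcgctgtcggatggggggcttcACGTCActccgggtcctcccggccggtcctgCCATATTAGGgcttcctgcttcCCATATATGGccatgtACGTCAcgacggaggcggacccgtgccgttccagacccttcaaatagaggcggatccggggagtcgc

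A total of 6 motifs were searched on both strands of the 250 bases before each start. They were the CArG box of serum response factor, the cyclic AMP response element TGACGTCA and its core TGACGT (which lies within the full element), the AP-1 element TGANTCA, the EGR element GCGNGGGCG and the TATA box TATAAA. The core TGACGT was found in 6 of the 8 genes with a window, and in 7.10% of all 35116 RefSeq windows of that length. It began 60 bases before the start in FOSB, 64 in FOS, 66 in FOSL2, 87 in JUND, and 67 and 136 in EGR1, and EGR2 held it 55 bases before start 3 of its 3 listed starts. The motif was added after the sequences were seen, and the count is per gene while the share is per window. Windows of these genes with the core, which contains CG, held 19 to 40 CG pairs, against a median of 11 over all windows. An excess of the core was not tested. The full element stood 200 bases before the start of JUND only, against 1.65% of all windows. The CArG box, in 1.16% of all windows, was present in EGR1, 105 and 83 bases before the start, and in EGR2, 71 bases before its start 3. No CArG box lay in the FOS window, but sequence more than 250 bases before any start was not searched. TATAAA, in 10.7% of all windows, lay 33 bases before the start in FOS (past the end of the stretch printed), 30 in FOSB and 31 in JUNB, and the EGR element, in 8.41%, lay 198 bases before the start of EGR1. The AP-1 element, in 6.57% of all windows, was in none of these windows. The JUN window held none of the motifs, but all 250 of its bases lay within the exon that GENCODE gives JUN. For JUN, the sequence before that exon was therefore not searched. FOSB, JUND and EGR1, which rose, and FOSL2, which fell, thus all carried the core. A match is a string of letters, and binding was not measured.

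**Figure D1:**
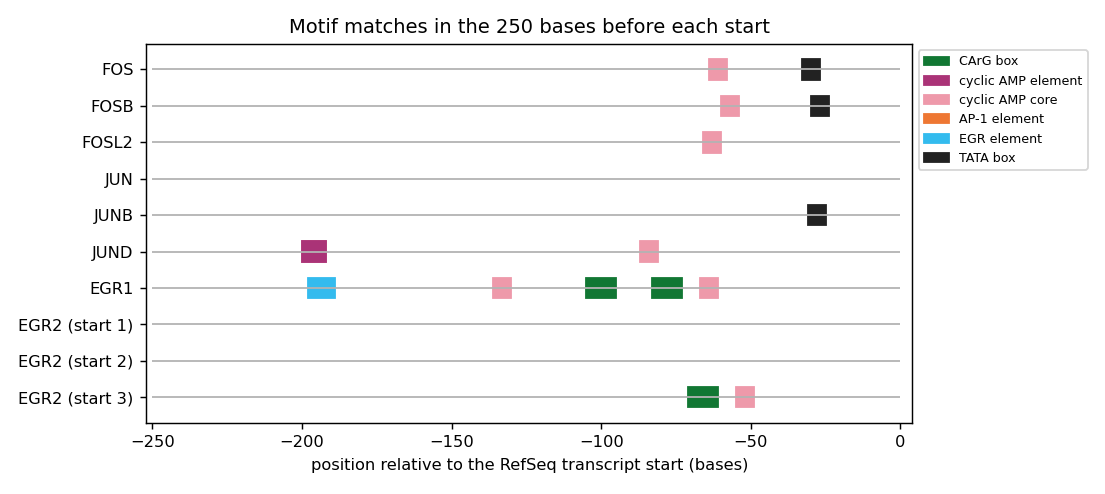
Position of each motif match (coloured boxes) in the 250 bases before the RefSeq start, with distance from the start in bases on the horizontal axis and 1 line per listed start of each gene. The core TGACGT lies 55 to 67 bases before the start in FOSB, FOS, FOSL2, EGR1 and start 3 of EGR2. JUN and the other listed starts of EGR2 show no match, and the JUN window lies wholly within the JUN exon.

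Values are normalised units: the deposited signal less the 1 the authors added, divided by a library scaling factor. Each gene was tested with limma, with an adjusted p (Benjamini-Hochberg) under 0.05 as threshold, over the 13049 genes with at least 10 units in 3 libraries. At this threshold 41.6% of tested genes were higher and 40.4% lower with salinomycin, 82.0% in either direction. Of the 10 genes, 9 were tested: FOSB, FOSL1, JUN, JUND, EGR1 and EGR3 were higher (6 of 9), FOSL2 was lower (1 of 9), and FOS and JUNB did not pass. The same 6 lay higher in all salinomycin libraries and FOSL2 lower, without overlap of the groups, as 42.4% and 40.7% of all tested genes did in those directions. EGR2 stayed under the filter, and EGR3 passed it only through the salinomycin libraries, where it is high. The median log2 change of the 9, EGR3 included, was 1.19, against 0.02 over all tested genes. The genes were chosen with earlier results of these data known, and this difference was not tested. In bulk RNA, a transcript level per cell and the share of cells that carry the transcript cannot be told apart.

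**Figure D2:**
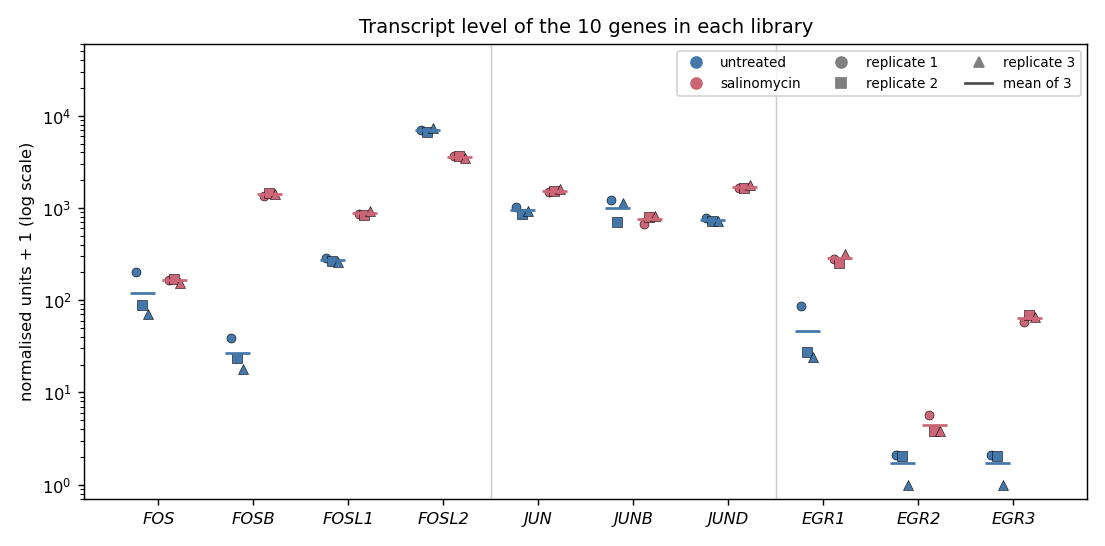
Level of each of the 10 genes in each library, as normalised units plus 1 on a log axis, with marker shapes for replicates and bars for the mean of 3. FOSB, FOSL1, JUN, JUND, EGR1 and EGR3 lie higher in all 3 salinomycin libraries than in any untreated one, FOSL2 lies lower, and FOS and JUNB overlap.

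Deposited totals were 16270249 to 16382904 per library, and reads recovered from the rounding steps of the values were 13538376 to 16158224 in untreated and 14931828 to 19640804 in salinomycin libraries. The epithelial keratin gene KRT18 was abundant in all libraries and lower with salinomycin, 84124 ± 4538 units against 20262 ± 724 (SD, n = 3 each), and KRT19 was 1.66-fold higher; of 6 tested epithelial markers 2 rose and 4 fell. The lung alveolar markers SFTPB and SFTPC had at most 2 reads in either group and the lung lineage factor NKX2-1 had 0 reads in untreated and 55 in salinomycin libraries. NKX2-1 is among the epithelial markers counted as rising, and passed the filter only through the salinomycin libraries, where it is high. Markers of other cells were low. The summed fibroblast list was 605 to 834 units in untreated and 423 to 463 in salinomycin libraries, nearly all from COL1A1, whose partner COL1A2 had 1 and 3 reads. The endothelial list summed to 9.60 to 15.1 and 2.82 to 10.2 units. The leukocyte list summed to 4.27 to 14.9 and 27.2 to 31.9 units, through LYZ and CD68, with PTPRC and CD3E not listed, and its part in the results was not tested. Library-size scaling shifted the median over all tested genes by 0.19 (log2) and gave 6439 higher and 4353 lower genes in place of 5434 and 5266, but turned the direction of none of the 9 tested genes.

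FOSB is the FOS family member whose protein has a strong activation domain and a truncated splice form, delta FosB. With a pseudocount of 1 added before taking log2, it showed the widest change of the 9 tested genes. With 0.5 added instead, the log2 change was 5.82 for FOSB and 5.89 for EGR3. FOSB lies on chromosome 19 (45467995 to 45475179, plus strand, GRCh38) and has 4 exons. The untreated libraries held 37.8, 22.3 and 17.1 normalised units, and the salinomycin libraries 1352, 1436 and 1416. Every salinomycin library was far above every untreated one, and the 3 salinomycin libraries lay close together. The means were 25.8 ± 10.8 and 1401 ± 44.1 (SD, n = 3 each), a log2 change of 5.79 (SE 0.212) or 55.2-fold (95% interval 40.0 to 76.2, limma, Benjamini-Hochberg adjusted p = 1.9e-10). By absolute log2 change FOSB stood 36th of the 13049 tested genes. The untreated values rest on 68 recovered reads, and the splice forms are not separated in gene-level values.

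FOSL1 encodes FRA1, a FOS relative without the strong activation domain of FOS that is linked to invasion in epithelial tumours. It lies on chromosome 11 (65892049 to 65900573, minus strand, 4 exons). It stood at 284, 266 and 258 units in untreated and at 867, 841 and 932 units in salinomycin libraries. The groups did not overlap and the spread within each was small. The rise was 3.26-fold (95% interval 2.92 to 3.63), a log2 change of 1.70 (SE 0.071, limma, Benjamini-Hochberg adjusted p = 6e-10).

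FOSL2 encodes FRA2, the other FOS relative of this kind, and was the only one of the 9 tested genes that fell. It lies on chromosome 2 (28392448 to 28417312, plus strand, 4 exons). Untreated libraries held 6940, 6725 and 7434 units and salinomycin libraries 3636, 3674 and 3468. All 3 untreated libraries were above all 3 salinomycin libraries. The level was 1.96-fold lower (95% interval 1.81 to 2.12), a log2 change of -0.97 (SE 0.052, limma, Benjamini-Hochberg adjusted p = 5.2e-09).

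FOS, the classical immediate-early partner of JUN, did not pass the test. It lies on chromosome 14 (75278774 to 75282230, plus strand, 4 exons). The untreated libraries held 199, 87.2 and 70.4 units and the salinomycin libraries 166, 169 and 154. The salinomycin libraries lay within the untreated range, above untreated replicates 2 and 3 and below untreated replicate 1. The log2 change was 0.60 (SE 0.288, 95% interval -0.03 to 1.23, limma, Benjamini-Hochberg adjusted p = 0.072), an interval that holds both no change and a 2.35-fold rise. In the authors' deposited table FOS had a log2 fold change of 0.651 with an adjusted p of 0.19. The authors' values come from a separate fit and are not on the scale used here: JUND was 1.38 there and 1.19 here, FOSL2 -0.772 and -0.97.

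Of the JUN family, JUND rose most. JUND is a JUN protein that is present in many resting cells and restrains growth in some of them, and its single-exon gene lies on chromosome 19 (18279760 to 18281622, minus strand). It stood at 783, 722 and 726 units in untreated and at 1651, 1656 and 1777 units in salinomycin libraries, without overlap. The rise was 2.28-fold (95% interval 2.08 to 2.49, log2 change 1.19, SE 0.058, limma, Benjamini-Hochberg adjusted p = 2.3e-09).

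JUN, the founding AP-1 subunit and the substrate of the JUN N-terminal kinases, is a single-exon gene on chromosome 1 (58780788 to 58784327, minus strand). It was at 1023, 865 and 929 units in untreated and at 1482, 1528 and 1597 units in salinomycin libraries. The groups did not overlap, and the rise was smaller than that of JUND, at 1.64-fold (95% interval 1.48 to 1.81, log2 change 0.71, SE 0.067, limma, Benjamini-Hochberg adjusted p = 8.6e-07). The distance between the changes of JUN and JUND was not tested.

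JUNB, a JUN protein that often opposes JUN in growth control, did not pass. Its single exon lies on chromosome 19 (12791496 to 12793315, plus strand) and shares 259 bases with exons of HOOK2 on the opposite strand, and the use of strand in counting is not given in the sources used here. JUNB stood at 1206, 696 and 1128 units in untreated and at 662, 802 and 823 units in salinomycin libraries. Untreated replicate 2 fell among the salinomycin libraries. The log2 change was -0.37 (SE 0.168, 95% interval -0.74 to -0.00, limma, Benjamini-Hochberg adjusted p = 0.058). In the authors' deposited table, from their separate fit on another scale, JUNB had a log2 fold change of -0.208 with an adjusted p of 0.474.

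**Figure D3:**
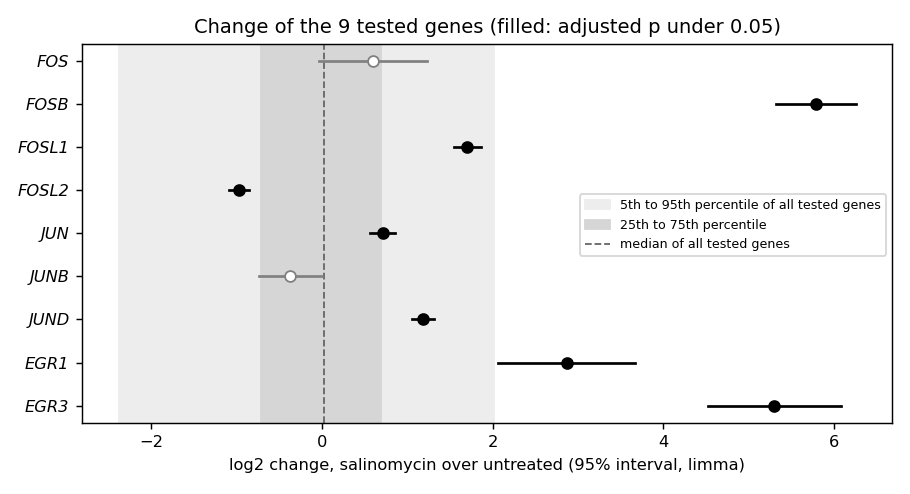
Log2 change of the 9 tested genes (salinomycin over untreated) with 95% intervals from limma; filled points passed the threshold, and grey bands mark the middle of all tested genes. FOSB (5.79), EGR3 (5.30) and EGR1 (2.87) lie beyond the 95th percentile band, FOSL2 (-0.97) lies on the lower side, and the interval of FOS crosses 0.

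EGR1, the most studied of the EGR factors and a common readout of ERK signalling, rose. It lies on chromosome 5 (138465490 to 138469315, plus strand) and has 2 exons. The untreated libraries held 85.4, 26.6 and 23.5 units, and the salinomycin libraries 281, 253 and 316. The groups did not overlap, although untreated replicate 1 stood well above the other untreated libraries. The rise was 7.31-fold (95% interval 4.19 to 12.7, log2 change 2.87, SE 0.365, limma, Benjamini-Hochberg adjusted p = 1.4e-05).

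EGR3, known from muscle spindle development and T cell anergy, went from almost no reads to a low but clear level. It lies on chromosome 8 and has 2 exons. It had 1.08, 1.06 and 0 units in untreated and 56.5, 68.4 and 64.8 units in salinomycin libraries, which rest on 2 and 219 recovered reads. Scaled for depth, the ratio of reads was 81.8 with a 95% counting interval of 22.4 to 680. The fitted log2 change of 5.30 (SE 0.355, limma, Benjamini-Hochberg adjusted p = 3.9e-08) depends on the pseudocount of 1, and is 5.89 with a pseudocount of 0.5 and 3.03 with 8. EGR3 shares 164 exon bases with a transcript on the opposite strand.

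EGR2, known from the myelination of nerves, remained near the limit of detection. It lies on chromosome 10 (62811996 to 62919900, minus strand). It had 1.08, 1.06 and 0 units in untreated and 4.63, 2.81 and 2.82 units in salinomycin libraries, from 2 and 12 recovered reads. The scaled ratio of reads was 4.48, with a 95% counting interval of 0.998 to 41.2 that includes no difference. The gene was under the filter, and without a filter limma called it higher at a log2 change of 1.42 (SE 0.401, Benjamini-Hochberg adjusted p = 0.01). EGR4, the remaining EGR gene, had 0 reads in untreated and 24 in salinomycin libraries. It was under the filter too, and limma called it higher without one (Benjamini-Hochberg adjusted p = 2.2e-04). It was at least 5.98-fold higher when 3 reads over the untreated group were taken as its floor.

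Set per kilobase of merged exons, the order of the genes differed between the groups. In untreated libraries the mean order was FOSL2 (983 units per kb), JUNB (555), JUND (399), JUN (265), FOSL1 (143), FOS (36.7), EGR1 (14.4), FOSB (4.64), EGR2 (0.194) and EGR3 (0.147). Neighbours whose libraries overlapped were JUNB and JUND, FOS and EGR1, and EGR2 and EGR3. In salinomycin libraries JUND came first (910 units per kb), followed by FOSL2 (502), FOSL1 (466), JUN (434), JUNB (419), FOSB (252), EGR1 (90.4), FOS (50.3), EGR3 (13.02) and EGR2 (0.927). There the libraries of FOSL2 and FOSL1, of FOSL1 and JUN, and of JUN and JUNB overlapped.

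The FOS family changed in make-up more than in total. Its summed level was 1189, 1112 and 1200 units per kb in untreated and 1262, 1270 and 1281 in salinomycin libraries, a ratio of means of 1.09. Within that sum the share of FOSL2 was 84.2% ± 2.49 in untreated and 39.5% ± 1.46 in salinomycin-treated cells (SD, n = 3 each). The shares of FOSL1 were 12.3% ± 0.738 and 36.7% ± 1.75, and those of FOSB 0.397% ± 0.161 and 19.9% ± 0.541. FOS made up 3.13% ± 1.79 and 3.96% ± 0.214. Untreated cells thus carried mostly FOSL2 transcripts, and salinomycin-treated cells FOSL2 and FOSL1 at overlapping levels with FOSB below them. These sums and shares are descriptions over the chosen genes and were not tested, and transcripts are not protein.

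The JUN family sum was 1372, 1014 and 1272 units per kb in untreated and 1668, 1761 and 1857 in salinomycin libraries. JUNB had the largest mean share in untreated libraries, 44.9% ± 6.26, and JUND in salinomycin libraries, 51.6% ± 1.34. The share of JUN was 21.9% ± 1.88 and 24.6% ± 0.417. FOS family transcripts per JUN family transcript were 0.866, 1.10 and 0.944 in untreated and 0.756, 0.721 and 0.690 in salinomycin libraries, so the JUN family outweighed the FOS family in every salinomycin library and in untreated replicates 1 and 3. With the longest coding transcript as length this order turned in untreated replicate 3, at 1300.1 units per kb for the FOS family and 1272 for the JUN family. The EGR family sum went from 14.7 ± 11.3 to 104 ± 9.81 units per kb (SD, n = 3 each), and the untreated mean was 8.23 without untreated replicate 1. EGR1 was 97.5% ± 2.88 of it in untreated and 86.5% ± 1.82 in salinomycin libraries, where EGR3 held 12.6% ± 1.90.

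**Figure D4:**
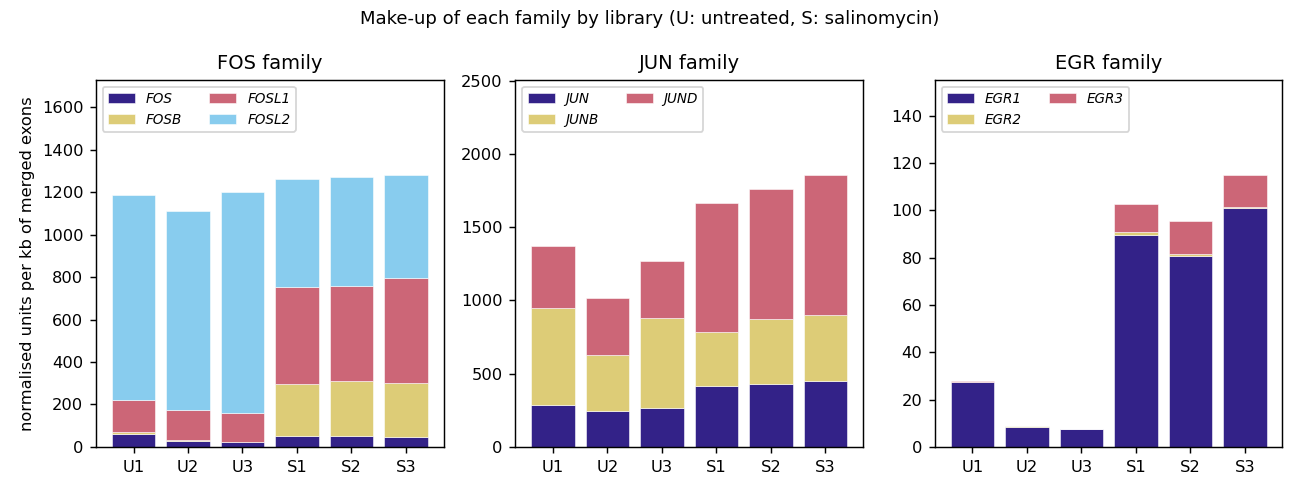
Stacked normalised units per kb of merged exons for the FOS, JUN and EGR families in each untreated (U) and salinomycin (S) library. FOSL2 is 81.6 to 86.5% of the FOS family bars in untreated and 37.8 to 40.4% in salinomycin libraries, and the EGR bars are 7.48 to 27.7 units per kb in untreated and 95.5 to 115 in salinomycin libraries.

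Untreated replicate 1 stood apart for several of these genes. Of the 8 genes with a mean of at least 10 untreated units, 7 were highest in that library, as were 35.2% of all tested genes. In 3 of the 8 it exceeded 1.5 times the mean of untreated replicates 2 and 3: EGR1 (3.41 times), FOS (2.52 times) and FOSB (1.92 times), against 1.58% of all tested genes. The coefficient of variation of the untreated libraries was 77.3% for EGR1, 58.8% for FOS and 41.9% for FOSB, and 7.06% in the median of all tested genes. Without that library FOS passed the test, at a log2 change of 1.04 or 2.06-fold (limma, Benjamini-Hochberg adjusted p = 2e-05, and 2e-05 to 0.33 over all 15 alternatives). FOSB was then 68.3-fold and EGR1 10.9-fold higher, and 7 of the 9 tested genes rose. JUNB passed without untreated replicate 2, at a log2 change of -0.62 (limma, Benjamini-Hochberg adjusted p = 6.4e-05, and 6.4e-05 to 0.32 over all 15 alternatives), and in 4 other alternatives its adjusted p lay between 0.021 and 0.0499. Of the other immediate-early genes listed below, 17 of 25 were highest in untreated replicate 1, and 2 of 25 passed 1.5 times.

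The genes around the AP-1 and EGR families were grouped in 9 lists with 125 genes, of which 116 were tested. With salinomycin 55 rose, 47 fell and 14 did not pass (limma, Benjamini-Hochberg adjusted p under 0.05), beside 41.6% higher and 40.4% lower among all tested genes. Among other leucine zipper factors that can pair with FOS or JUN proteins, 6 of 11 tested rose and 4 fell, and the median log2 change was 0.19. ATF3, a stress-induced partner of JUN, rose 12.02-fold, from 197 ± 21.5 to 2365 ± 59.9 units (SD, n = 3 each), and MAFF, a small MAF protein without an activation domain, rose 7.40-fold. BATF2, which pairs with JUN and lacks an activation domain, was 3.43-fold lower. Of the EGR co-repressors, NAB1 was 1.27-fold lower, a call that scaling by library size alone ended (adjusted p = 0.083), and NAB2 did not pass at a log2 change of 0.07.

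Upstream factors moved in both directions, beside 41.6% higher and 40.4% lower among all tested genes. Of 11 tested factors that act at serum response and cyclic AMP elements 4 rose and 5 fell, and the median log2 change was -0.17. SRF itself, which binds the CArG box, was lower at a log2 change of -0.58, its coactivator MRTFA was 2.88-fold lower and its partner ELK3 2.55-fold lower, while the partner ELK1 rose 2.34-fold. In the ERK cascade 5 of 14 genes rose and 7 fell (median log2 change -0.22). RPS6KA2, an S6 kinase downstream of ERK, rose 28.8-fold from 13.6 ± 2.35 to 416 ± 28.2 units (SD, n = 3 each), while RPS6KA1 of the same family was 2.96-fold lower and the kinase gene MAPK3 (ERK1) 2.48-fold lower. Of the JNK and p38 cascades 8 of 16 rose and 8 fell (median log2 change -0.03), with MAPK13 (p38 delta) 5.96-fold higher, MAPK10 (JNK3) 5.48-fold lower and the p38 activator MAP2K6 3.12-fold lower. MAPK10, with 155 reads in untreated and 37 in salinomycin libraries, passed the filter only through the untreated libraries, where it is high. Kinase activity and phosphorylation were not measured.

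Among genes for the turnover of FOS, JUN and EGR transcripts and proteins, 7 of 10 rose and 2 fell (median log2 change 0.39), beside 41.6% higher and 40.4% lower among all tested genes. ZFP36L2, which promotes decay of AU-rich messages, was 1.90-fold lower, ITCH, a ubiquitin ligase for JUN proteins, rose 1.78-fold, and ELAVL1 (HuR), which stabilises AU-rich messages, rose 1.57-fold. Of the other RNA-binding factors in this list, HNRNPD rose 1.42-fold, KHSRP 1.33-fold and ZFP36 1.14-fold, and ZFP36L1 was 1.31-fold lower.

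Other immediate-early genes were called in both directions: 12 of 25 rose, 9 fell and 4 did not pass, around a median log2 change of 0.04. Over all tested genes 41.6% were higher and 40.4% lower. NR4A3, a nuclear receptor gene, rose 16.6-fold from 29.3 ± 2.43 to 503 ± 44.6 units, and KLF2, a Krüppel-like factor gene, rose 4.90-fold from 20.7 ± 6.59 to 102 ± 3.46 units (SD, n = 3 each). ARC, best known from neurons, had 12 reads in untreated and 277 in salinomycin libraries, and passed the filter only through the latter. Its 21.0-fold rise was 7.34-fold with a pseudocount of 8 and 10.8-fold without untreated replicate 3.

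Genes known as AP-1 targets were also called in both directions: 8 of 17 tested rose and 7 fell (median log2 change -0.08), and 4 were under the filter. These counts, and those of the EGR targets below, stand beside 41.6% higher and 40.4% lower among all tested genes. MMP9, a secreted protease gene that passed the filter only through the salinomycin libraries, went from 3 to 198 reads, a scaled ratio of 49.3 with a 95% counting interval of 16.6 to 241. The cytokine gene IL11 was 3.03-fold lower. Of EGR targets 5 of 10 tested rose and 4 fell (median log2 change -0.04). The matrix gene FN1 was 19.8-fold lower, from 176088 ± 12521 to 8937 ± 1106 units, and the matrix gene THBS1 4.68-fold lower, whereas ICAM1, an adhesion receptor gene, rose 7.92-fold from 29.3 ± 5.16 to 237 ± 27.0 units (SD, n = 3 each).

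**Figure D5:**
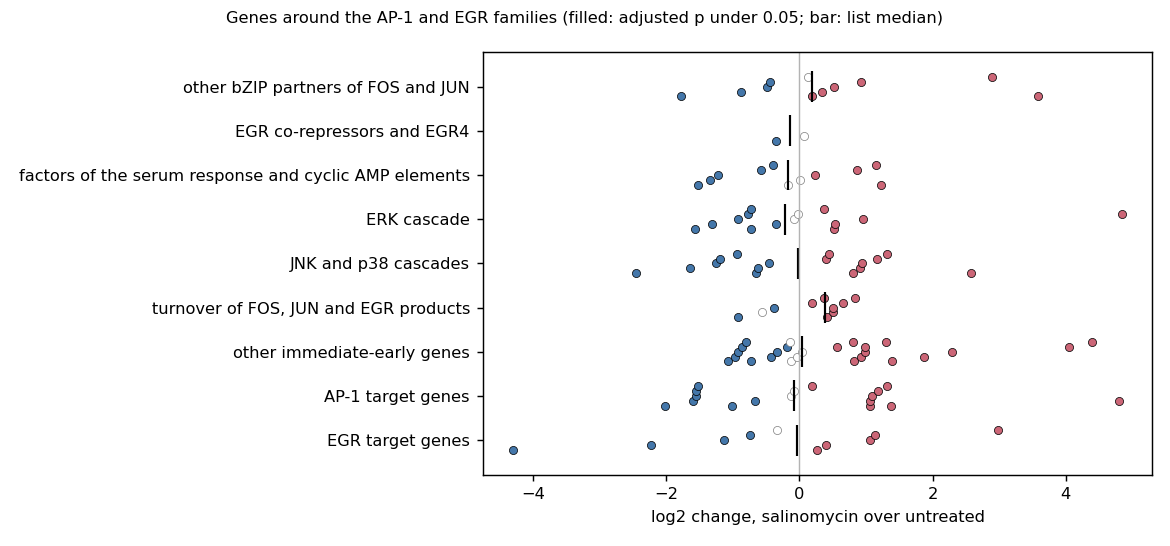
Log2 change (salinomycin over untreated) of each tested gene in the 9 lists around the AP-1 and EGR families, with filled points for genes that passed the threshold and a bar at each list's median. Each list with more than 2 tested genes holds filled points on both sides of 0, and the list medians lie between -0.22 and 0.39.

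The authors' deposited table of gene sets held 53 sets of 21624 whose names matched these families, SRF or the MAP kinase cascades by a search for whole words. Of these, 17 had a positive normalised enrichment score in the authors' deposited table, none of them with an adjusted p under 0.05, and 36 a negative one, 9 of them with an adjusted p under 0.05. Over all sets 5.01% were positive and 12.8% negative at that threshold. A further 16 sets carry the name of a single gene of these families with its number or letter. Of those, 9 were positive and 7 negative in the authors' deposited table, and 1, named LE_EGR2_TARGETS_DN, passed at a score of 1.677 (adjusted p = 0.00957). The authors' deposited table gave the SRF motif set Q5_01 a score of -1.626 (adjusted p = 0.00239), the AP-1 motif set Q4 -1.413 (adjusted p = 0.0199), the only one of 8 AP-1 motif sets to pass (4 positive, 4 negative), the curated AP-1 pathway -1.057 (adjusted p = 0.578) and the EGR motif set Q6 1.153 (adjusted p = 0.363).

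For the member of each family with the widest change and a mean of at least 50 units, the 3 genes with the most similar values were sought by Euclidean distance of log2 values, centred on the untreated mean, over the 6 libraries. Nearest to FOSB were ARG2 (distance 0.459), DERL3 (0.554) and IRAK3 (0.740). ARG2 had means of 10.7 and 689 units, while DERL3 and IRAK3 had 1.79 and 2.15 units in untreated libraries. Nearest to JUND were ARL16 (0.065), APOL2 (0.073) and RNF167 (0.083), with untreated means of 610 to 2624 units. Nearest to EGR1 were BHLHA15 (0.385), STX11 (0.631) and KRT33B (0.651), all with mean untreated levels of at most 10.7 units. DERL3, IRAK3, STX11 and KRT33B had untreated means under the filter of 10 units and passed it only with the salinomycin libraries. Their distances depend on the pseudocount of 1, and similarity was not tested.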

How the data were processed

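RNA-seq values of 6 libraries (3 untreated, 3 salinomycin) were compared. Per the submitters' processing notes, the authors used the GRCh38 build; for the aligner, counter and annotation, nothing is given in the sources used here. The authors deposited 1 signal value per gene and library, rescaled whole numbers with a lowest value of 1 in place of 0. Per the file headers, the deposited table also held a log10 mean, a log2 fold change, a linear fold change (a ratio), a test score and p-values per gene, and a second deposited table held an enrichment score and p-values per gene set.

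From each value 1 was subtracted, and the rest was divided by a trimmed-mean factor (30% trimming of log ratios, 5% of levels) to give normalised units. Log2 of units plus a pseudocount of 1 was tested with limma 3.58.1 in R 4.3.3 (mean-variance trend, Benjamini-Hochberg adjustment, threshold 0.05), for genes with 10 or more units in at least 3 libraries. Fold changes are on this scale, and for low genes they can lie below or above the ratio of mean units. EGR3 was 39.4-fold higher against a ratio of means of 88.4, ARC 21.0-fold against 18.4 and EGR1 7.31-fold against 6.28. A count model would have been used for raw counts, which these are not. The fit was tested on simulated data. Reads were recovered from the rounding steps by likelihood; in libraries with a scale factor under 1 they are estimates that the values cannot check. Ratios of reads were scaled for depth. Their 95% intervals cover counting error only, and the floor covers that of the untreated reads alone. Levels per kb use merged exons of GENCODE 29.

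The members and lists were chosen with earlier results of these data known. Named were the 10 members, the 3 widest called changes of each list, the most abundant marker of each list of other cells, and the 3 genes nearest to 1 member per family; some genes that this rule names are not reported here. SRF, NAB2, EGR4, KRT19, CD68, COL1A2, NKX2-1, SFTPB, SFTPC, HNRNPD, KHSRP, ZFP36 and ZFP36L1 were named after their values were seen. The motif TGACGT was added after the sequences were seen. Where the labels' replicates share a culture is not stated; if they do, p-values measure only technical spread. Alternatives were 3 other scalings, 2 other filters, 2 other pseudocounts, limma-voom on recovered reads, the replicate number as a block, another gene length and leaving out each library.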

Additional observations from a re-analysis of the deposited data

How the results depend on the processing

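No direction of the 9 tested genes turned under any of the 15 alternatives: of 135 values, 126 kept their side of the threshold and 9 passed it newly, all of them for FOS or JUNB. FOS passed with scaling by library size alone (log2 change 0.79, limma adjusted p = 0.022), with limma-voom (0.59, adjusted p = 0.042) and with the replicate number as a block (0.60, adjusted p = 0.031), and lay between 0.30 and 1.04 when single libraries were left out. JUNB passed with upper-quartile scaling (-0.46, adjusted p = 0.021), with limma-voom (-0.36, adjusted p = 0.047) and with the replicate block (-0.37, adjusted p = 0.045), and lay between -0.62 and -0.22 when single libraries were left out. Of the 10 genes, 7 rose in place of 6 with scaling by library size alone, limma-voom, the block and without untreated replicate 1, through FOS, and with no filter, through EGR2. The number that fell was 2 under upper-quartile scaling, limma-voom and the block, and 1 to 2 when single libraries were left out (2 without untreated replicate 2 or salinomycin replicate 3); the cause was not tested. The replicate numbers did not pair the libraries: deviations of same-numbered libraries correlated at -0.18, -0.016 and -0.034, other pairs at -0.15 to 0.19, and not every library correlated best with its own number. With the block 5305 genes rose and 5129 fell.

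Family values set per kb moved with the length and the scaling by construction. With the longest coding transcript as length, the FOS family sum was 1272 units per kb in untreated and 1509 in salinomycin libraries, and in the latter the share of FOSL2 was 35.5% and that of FOSB 24.6%. With scaling by library size alone the FOS family sum was 1092 and 1358 and the JUN family sum in salinomycin libraries 1882. Of 552 values of the other genes named by the rule, 551 kept their call, the exception being NAB1. Low reads limit EGR2, EGR3, EGR4, ARC and MMP9.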
